A study of Rattus norvegicus with 16 samples.

Results

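The genes described here encode the proteins that bring glucose into heart cells, split it to pyruvate, exchange lactate, store glucose as glycogen and feed pyruvate into the mitochondrion. Hearts of 2 inbred rat strains were compared: HHR (Hypertrophic Heart Rat), in which cardiac enlargement is inherited, and NHR (Normal Heart Rat), which serves as control. A list of 37 genes was used, and each was represented by the brightest probe set that the platform annotation assigns to that gene alone. This gave 36 genes of the 14324 named in this way, and the deposited table held 27342 probe sets in all. Hk1, a hexokinase, was not analysed here. Each strain gave 4 females and 4 males aged 2 days, for which the labels list no treatment, with 1 array per animal and no pooling. HHR hearts were labelled hypertrophic and NHR hearts normal in size. Neither litter nor batch is stated in the labels, and the p-values thus measure the spread between these animals only.

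Glucose enters heart cells through facilitative carriers, of which GLUT1 (Slc2a1) is the basal and fetal form and GLUT4 (Slc2a4) the insulin-responsive form that becomes dominant after birth. Glycolysis first spends ATP to make triose phosphates, with phosphofructokinase as its main control point, and then regains ATP on the way to pyruvate. Pyruvate is either reduced to lactate or oxidised by the mitochondrial pyruvate dehydrogenase complex, which dehydrogenase kinases switch off and phosphatases switch on. The fetal heart relies strongly on glycolysis and lactate and holds large glycogen stores, and it moves towards fatty acid oxidation after birth.

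Of the 36 genes, 12 were higher in HHR, 5 were lower and 19 did not pass the threshold, an adjusted p under 0.05 in limma with Benjamini-Hochberg adjustment over all probe sets. The genes that rose were Tpi1, Pgk1, Pgam2, Eno1, Slc16a3, Pdha1, Pdhb, Dld, Gys1, Pygm, Gbe1 and Ugp2. Those that fell were Slc2a1, Pfkl, Pfkp, Pfkfb2 and Pdk1. Members higher in HHR made up 33.3% of those measured, beside 9.64% of all probe sets, and members lower in HHR 13.9%, beside 11.0% of all probe sets. The share that fell was thus close to that of the array as a whole. Both shares of the array were larger among brighter probe sets. After a filter for values above the 40th percentile on at least 4 arrays, 2777 of 16900 probe sets were higher and 2877 lower. Among the members, this filter removed only Pfkfb1. The median log2 difference (HHR minus NHR) was 0.06 over the members and -0.03 over all probe sets. Called differences were modest, between 0.13 and 0.56 for the rises and between -0.48 and -0.22 for the falls.

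**Figure D1:**
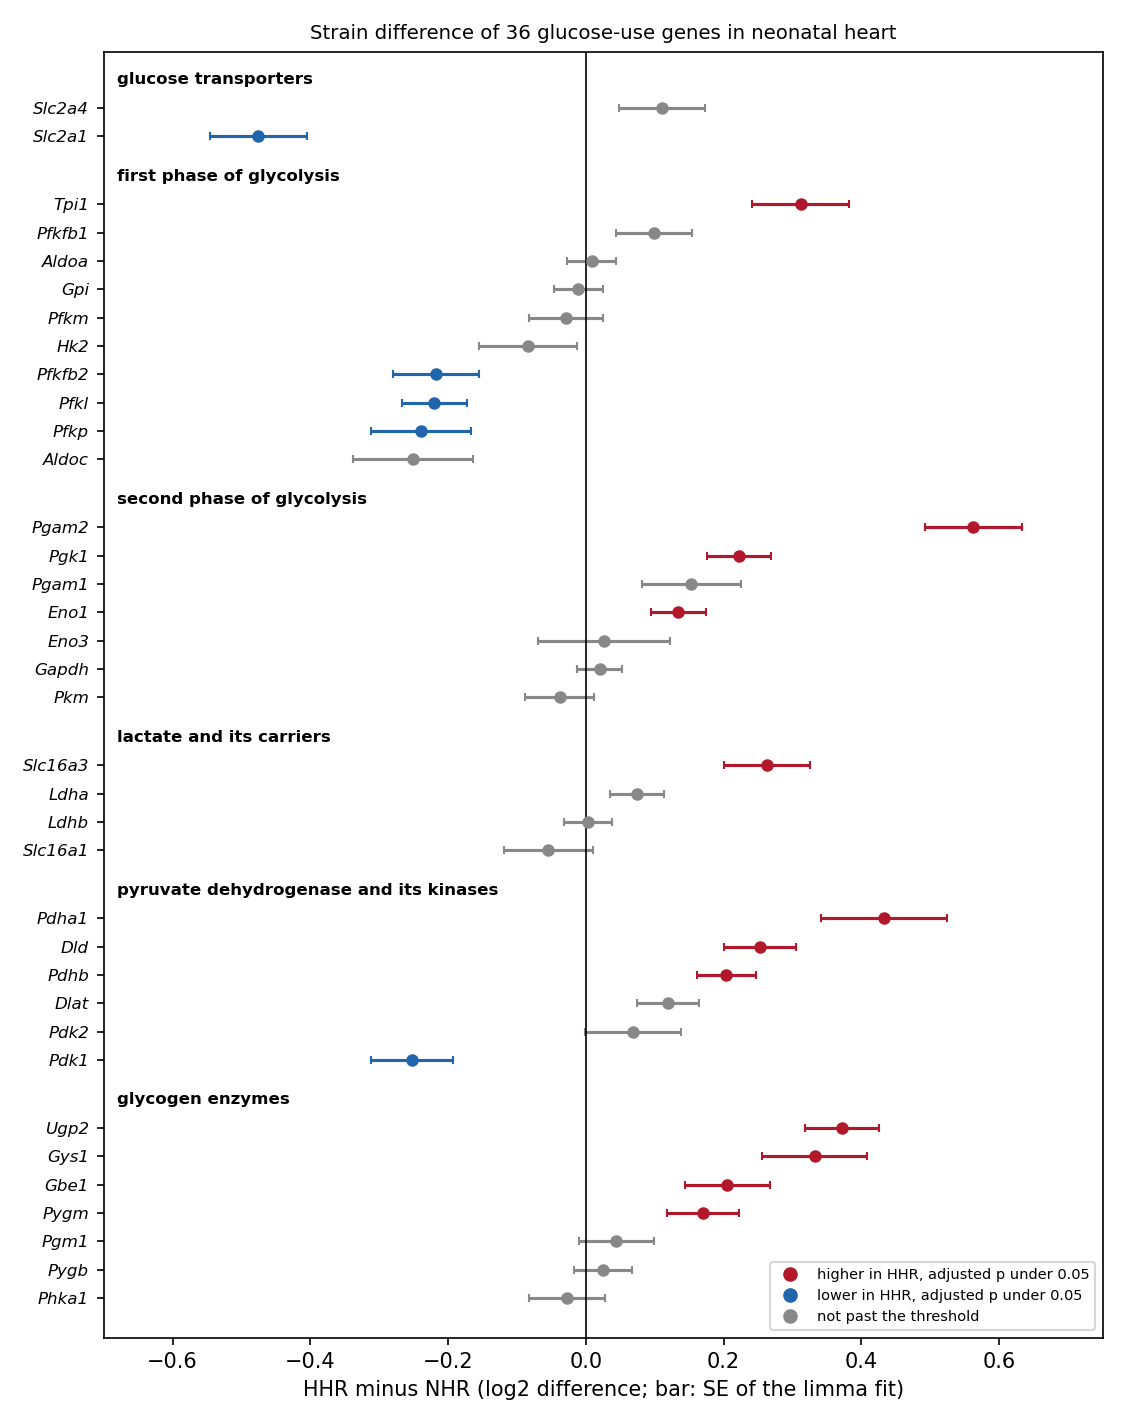
Log2 difference (HHR minus NHR, averaged over the sexes) of the 36 genes on the horizontal axis, grouped by role, with the SE of the limma fit as bars; red points rose, blue points fell and grey points did not pass the threshold. Slc2a1 lies farthest left at -0.48 and Pgam2 farthest right at 0.56, and all called pyruvate dehydrogenase subunits and glycogen enzymes lie right of 0.

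Values are log2 expression on which 1 unit is a doubling, and the arrays' medians lay between 7.19 and 7.28. Within groups, the main axis of variation set 3 NHR arrays (NHR female 3, NHR female 4 and NHR male 4) at its upper end, with scores of 14.4, 15.1 and 22.6. Other NHR arrays lay at its lower end: NHR female 1 (-16.9), NHR male 2 (-13.2), NHR female 2 (-12.6) and NHR male 1 (-11.1). NHR male 3 lay between them at 1.74, and HHR arrays ran from -3.72 to 7.48. In both NHR sexes, replicates 1 and 2 thus had negative scores and replicates 3 and 4 positive scores. Leaving out the 3 upper arrays, called the 3 NHR arrays apart below, thus drops 1 end of this axis only. Called results of members and other pathway genes that are lost or move by over 1.5 times without these 3 arrays are given without them too. Without these arrays, an alternative chosen after seeing the data that also lowers power, 10 members were higher and 3 lower. These were 27.8% and 8.33% of the members, beside 6.76% and 7.86% of all probe sets in that fit. Spread within groups was larger in NHR for 29 of the 36 members (80.6%), as for 70.8% of all probe sets. The median SD within a group over the members was 0.083 in HHR and 0.130 in NHR. The design text describes ventricles separated from atria and a growth protocol describes the whole heart. Heart muscle markers were abundant, with Actc1 (cardiac actin) at 14.24 in HHR and 14.22 in NHR, while 5 of 8 cardiomyocyte markers and 2 of 3 ventricular markers were lower in HHR and 2 of 5 atrial markers were higher. The mean level of the cardiomyocyte list was 13.18 to 13.29 over HHR arrays and 13.28 to 13.43 over NHR arrays, and that of the atrial list was 10.41 to 11.27 in HHR and 10.21 to 10.79 in NHR. The fibroblast list had 3 of 8 members higher and 0 lower, with mean levels of 10.77 to 11.09 in HHR and 10.64 to 10.92 in NHR. Such marker counts, here and below, stand beside 9.64% of all probe sets higher and 11.0% lower in the fit of all arrays. Without the 3 NHR arrays apart, 4 cardiomyocyte markers were lower and 2 fibroblast markers higher. In that fit the erythroid list had 1 higher and 2 lower, and the skeletal muscle list 1 lower. Counts of the ventricular, atrial and endothelial lists stayed the same. In tissue of this kind, fewer cells of a type and less RNA per cell cannot be told apart, and the part of these marker differences in the results below was not tested.

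Among the glucose carriers, transcripts of the fetal form were lower in HHR, and uptake itself was not measured. Slc2a1 (chromosome 5) ranged from 11.11 to 11.57 over the 8 HHR arrays, median 11.37, and from 11.69 to 12.13 over the 8 NHR arrays, median 11.71. Every HHR array lay below every NHR array. Its mean was 11.33 ± 0.19 in HHR and 11.81 ± 0.17 in NHR (SD, n = 8 each), a 1.39-fold lower level in HHR (log2 difference -0.48, SE 0.07, limma adjusted p = 2.1e-04). Among all probe sets, 2.20% had every HHR array below every NHR array, and among the members Slc2a1 was the single such gene, 2.78% of them. Endothelial cells also carry GLUT1, and 4 of 7 endothelial markers were lower and 1 higher in HHR, with mean levels of the list at 10.32 to 10.44 in HHR and 10.41 to 10.56 in NHR. The erythroid list, another possible source of GLUT1 transcripts, had 2 of 7 members higher and 2 lower, at 8.40 to 8.67 in HHR and 8.33 to 8.84 in NHR. The part of either cell type in the Slc2a1 difference was not tested. Slc2a4 ranged from 9.58 to 9.94 in HHR and from 9.48 to 10.00 in NHR, with a log2 difference of 0.11 (SE 0.06, limma adjusted p = 0.23). Without NHR male 4, the array with the highest Slc2a4 value, the difference was 0.16 and passed the threshold (adjusted p = 0.033), and without the 3 NHR arrays apart it was 0.18 (adjusted p = 0.040).

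The promoter windows of the largest fall and the largest rise are shown here, each covering 250 bases before and 50 after the annotated start in RefSeq's GRCr8 table, 5′ to 3′ on the gene's strand. The window of Slc2a1 is chr5:138002272-138002571 (+) and that of Pgam2, a muscle phosphoglycerate mutase described below, is chr14:84897825-84898124 (-). Capitals mark matches, on either strand, to 5 short motifs: the Sp1 box GGGCGG, the estrogen-related receptor site AAGGTCA, the hypoxia-response core ACGTG, the TATA box TATAAA and the E-box CAGCTG.
Slc2a1: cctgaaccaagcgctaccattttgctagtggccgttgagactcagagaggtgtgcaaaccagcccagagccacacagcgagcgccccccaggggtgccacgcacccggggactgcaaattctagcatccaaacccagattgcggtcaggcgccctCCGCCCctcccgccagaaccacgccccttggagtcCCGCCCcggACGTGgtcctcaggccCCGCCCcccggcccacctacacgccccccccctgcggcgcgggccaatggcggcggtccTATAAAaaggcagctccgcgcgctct
Pgam2: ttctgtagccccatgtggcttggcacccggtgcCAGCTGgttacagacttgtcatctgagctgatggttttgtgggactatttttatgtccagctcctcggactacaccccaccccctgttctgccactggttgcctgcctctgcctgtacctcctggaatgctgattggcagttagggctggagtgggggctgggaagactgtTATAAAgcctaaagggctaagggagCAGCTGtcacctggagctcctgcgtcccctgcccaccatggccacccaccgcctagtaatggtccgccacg
The Slc2a1 window held 3 Sp1 boxes on the reverse strand, starting at -95, -60 and -35 from the start, an ACGTG at -51 and a TATAAA at 25. The Pgam2 window held a TATAAA at -46 and E-boxes at -217 and -21, and no match to the Sp1, ACGTG or receptor motifs in these letters. Of all 33469 windows of this length, 33.1% held the Sp1 box, 19.3% ACGTG, 15.1% the E-box, 14.2% TATAAA and 4.61% AAGGTCA. Of the 32 members with a single window, 19 held the Sp1 box (59.4%), 16 ACGTG (50.0%), 7 the E-box (21.9%), 6 TATAAA (18.8%) and 2 AAGGTCA (6.25%). Aldoa and Eno1 have more than 1 window and were left out of these shares, and Slc2a4 and Pgk1 were not matched. The shares over all windows count every window of genes that have several, so the sets are unlike. A match describes letters in the window and is no evidence that a factor binds there.

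In the first phase of glycolysis, 1 of 10 measured genes rose and 3 fell, beside 9.64% and 11.0% of all probe sets. The genes that fell act at the phosphofructokinase step. Pfkl, the liver-type phosphofructokinase subunit, ranged from 9.36 to 9.66 in HHR, median 9.49, and from 9.64 to 9.83 in NHR, median 9.72. All but 1 of the HHR arrays lay below the lowest NHR array (log2 difference -0.22, SE 0.05, limma adjusted p = 0.0031). Pfkp, the platelet-type subunit, averaged 10.39 ± 0.13 in HHR and 10.63 ± 0.18 in NHR (SD, n = 8 each), and the groups overlapped (log2 difference -0.24, SE 0.07, adjusted p = 0.026). Its call was lost without any 1 of HHR female 4, HHR male 3, HHR male 4, NHR female 2, NHR female 4, NHR male 3 or NHR male 4, at adjusted p values of 0.0501 to 0.0570, and without the 3 NHR arrays apart (-0.22, adjusted p = 0.0597). Pfkm, the muscle-type subunit, ranged from 10.91 to 11.31 in HHR and from 11.02 to 11.24 in NHR, with a difference of -0.03 (SE 0.05, adjusted p = 0.75). Pfkfb2, the heart form of the enzyme that makes and breaks fructose 2,6-bisphosphate, the activator of phosphofructokinase, averaged 7.88 ± 0.08 in HHR, against 8.09 ± 0.15 in NHR (SD, n = 8 each). This was a log2 difference of -0.22 (SE 0.06, adjusted p = 0.019). Without the 3 NHR arrays apart the Pfkfb2 difference was -0.12 and not called (adjusted p = 0.18). Pfkfb1, the liver and muscle form, was dim, between 6.29 and 6.72 over all arrays, and did not pass (0.10, adjusted p = 0.23).

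The single rise in this phase was in Tpi1, which interconverts the 2 triose phosphates. Tpi1 ranged from 12.97 to 13.30 in HHR, median 13.10, and from 12.43 to 13.02 in NHR, median 12.85, and 7 of 8 HHR values exceeded the highest NHR value. The log2 difference was 0.31 (SE 0.07, limma adjusted p = 0.0047), and with the 3 NHR arrays apart left out it was 0.18 (adjusted p = 0.030). NHR female 3 and NHR female 4, at 12.43 and 12.53, were the lowest of the 16 arrays. Aldoc, the brain-type aldolase, was lower by a size like those of the called genes but just missed the threshold (log2 difference -0.25, SE 0.09, adjusted p = 0.0502). Its adjusted p fell to 0.018 without HHR female 2 and 0.013 without NHR male 4, and 10 of 27 alternatives called it, among them the fit without the 3 NHR arrays apart (-0.34, adjusted p = 0.021). Hk2, the insulin-regulated hexokinase (-0.08, adjusted p = 0.44), Gpi, which makes fructose 6-phosphate (-0.01, adjusted p = 0.87), and Aldoa, the muscle aldolase (0.01, adjusted p = 0.90), did not pass.

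The second phase of glycolysis held 3 rises and no fall among 7 genes, beside 9.64% and 11.0% of all probe sets. Its largest rise was in the muscle isozyme Pgam2. Pgam2, which shifts the phosphate of 3-phosphoglycerate, ranged from 10.29 to 10.45 in HHR, median 10.36, and from 9.36 to 10.06 in NHR, median 9.84. Every HHR array lay above every NHR array, and the level was 1.48-fold higher (log2 difference 0.56, SE 0.07, limma adjusted p = 4.8e-05). The HHR arrays were tightly grouped, with an SD of 0.05, against 0.21 in NHR (n = 8 each), where NHR male 4 was lowest. Pgam2 and Ugp2 were the members with complete separation upward, 5.56% of them, beside 1.95% of all probe sets. Among skeletal muscle markers, Myog and Ckm (which is also made in heart) were lower and the other 5 of 7 did not pass, with mean levels of 8.15 to 8.29 in HHR and 8.18 to 8.43 in NHR. Myog was dim, between 6.02 and 6.67 over all arrays. Its call was lost without the 3 NHR arrays apart (-0.16, limma adjusted p = 0.083).

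Pgk1, on chromosome X, makes the first ATP of this phase. It ranged from 11.57 to 11.81 in HHR and from 11.32 to 11.71 in NHR, with 5 HHR arrays above every NHR array (log2 difference 0.22, SE 0.05, limma adjusted p = 0.0030). Eno1, the ubiquitous enolase, lay between 13.02 and 13.16 on HHR arrays and between 12.86 and 13.03 on NHR arrays (log2 difference 0.13, SE 0.04, adjusted p = 0.023). All 3 of its probe sets passed, with differences of 0.13 to 0.16, but near-identical copies of Eno1, Gapdh, Pgk1, Tpi1 and Ldha elsewhere in the genome can add to such signals. The Eno1 call was lost under quantile normalization, under cyclic loess and with the 3 NHR arrays apart left out (0.11, adjusted p = 0.095). The genes of this phase that did not pass were Gapdh (0.02, adjusted p = 0.71 and 16 probe sets, none called), Pgam1, the brain-type mutase (0.15, adjusted p = 0.15), Eno3, the muscle enolase (0.03, adjusted p = 0.88), and Pkm, the muscle pyruvate kinase (-0.04, adjusted p = 0.64). Eno3 spread widely in NHR, from 11.15 to 11.81, against 11.32 to 11.68 in HHR.

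**Figure D2:**
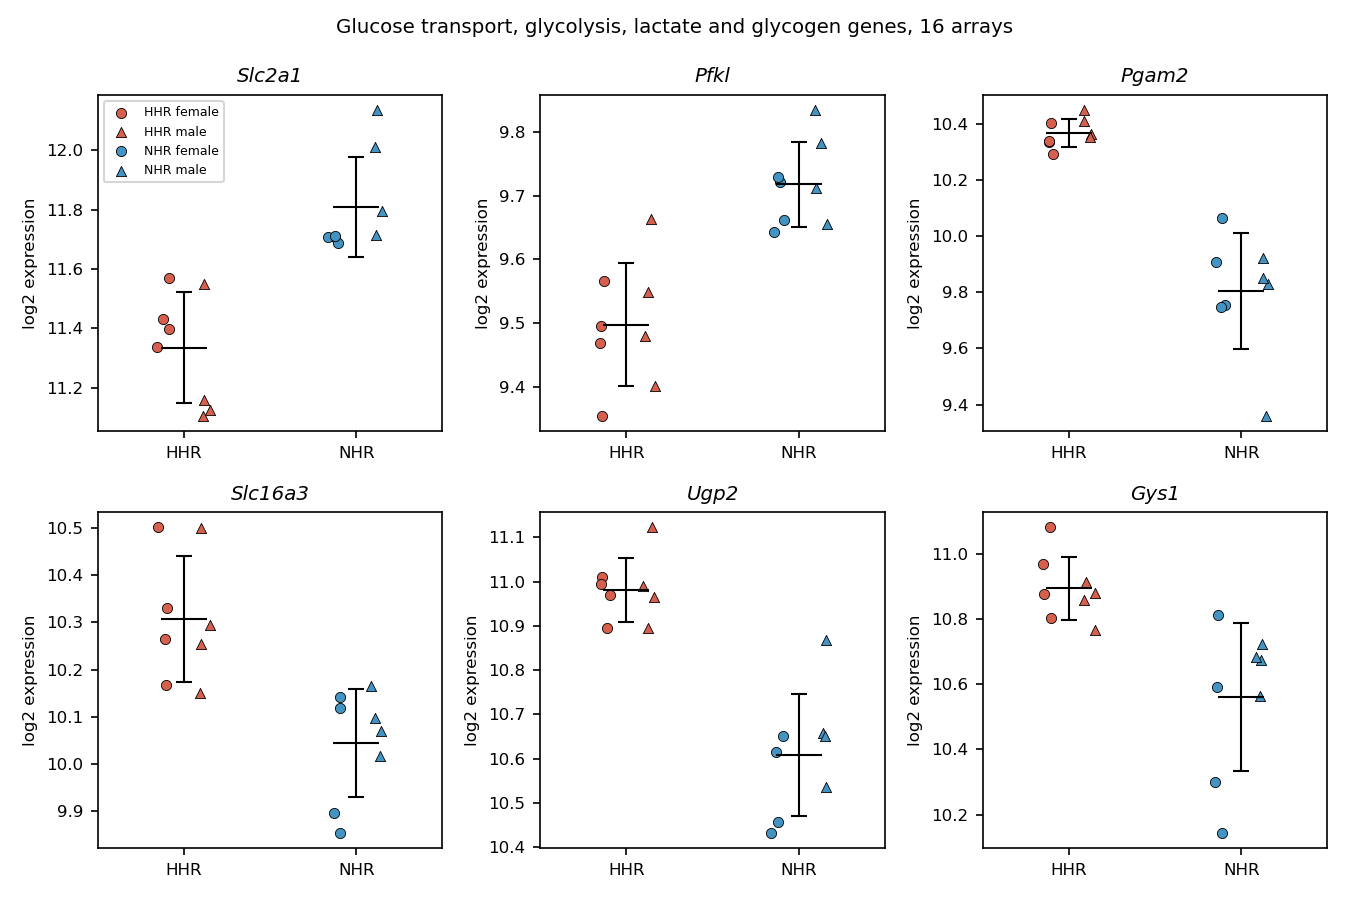
Log2 expression of 6 genes on each array, with HHR left of NHR, circles for females and triangles for males, and the mean and SD of 8 arrays as a horizontal line and bar; vertical axes differ between panels and do not start at 0. HHR and NHR arrays do not overlap in Slc2a1, Pgam2 and Ugp2, and the 2 lowest NHR values of Gys1 and Slc16a3 are those of NHR female 3 and NHR female 4.

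Of the 4 genes for lactate and its carriers, 1 rose and none fell, beside 9.64% and 11.0% of all probe sets. Slc16a3 encodes MCT4, the carrier through which glycolytic cells export lactate, and ranged from 10.15 to 10.50 in HHR, median 10.28, and from 9.86 to 10.17 in NHR, median 10.08. The log2 difference was 0.26 (SE 0.06, limma adjusted p = 0.0065), and 7 of 8 HHR values exceeded the highest NHR value. Without the 3 NHR arrays apart it was 0.20 and not called (adjusted p = 0.062). Slc16a1 (MCT1, which takes lactate up in heart) differed by -0.05 (adjusted p = 0.60). The lactate dehydrogenase subunits Ldha (0.07, adjusted p = 0.20) and Ldhb (0.00, adjusted p = 0.97) did not pass either.

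Of the 6 genes for the pyruvate dehydrogenase complex and its kinases, 3 rose and 1 fell, beside 9.64% and 11.0% of all probe sets. The rises were in subunits and the fall in a kinase that switches the complex off. Outside the members, the phosphatase Pdp1, which switches the complex on, fell as well, as described below. Pdha1, on chromosome X, encodes the alpha subunit of the first enzyme (E1) and ranged from 12.13 to 12.34 in HHR, median 12.27, and from 11.38 to 12.27 in NHR, median 11.84. The groups overlapped, since NHR male 2 reached 12.27, and the level was 1.35-fold higher (log2 difference 0.43, SE 0.09, limma adjusted p = 0.0031). Both of its probe sets passed. Pdhb, the E1 beta subunit, ranged from 11.09 to 11.29 in HHR and from 10.89 to 11.17 in NHR, with 7 of 8 HHR arrays above every NHR array (0.20, SE 0.04, adjusted p = 0.0028). Dld, the third enzyme of the complex (E3), which other dehydrogenase complexes share, ranged from 10.93 to 11.20 in HHR and from 10.63 to 11.07 in NHR (0.25, SE 0.05, adjusted p = 0.0027). Dlat, the E2 core enzyme, was at 11.52 ± 0.08 in HHR and 11.40 ± 0.08 in NHR and did not pass (0.12, SE 0.04, adjusted p = 0.070). It passed without NHR male 4 (0.14, adjusted p = 0.031).

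Pdk1, a kinase that inactivates the complex, ranged from 9.73 to 9.96 in HHR and from 9.91 to 10.34 in NHR, a log2 difference of -0.25 (SE 0.06, limma adjusted p = 0.0059). Without the 3 NHR arrays apart it was -0.17, with an adjusted p of 0.0526. Pdk2, another of the kinases, differed by 0.07 (adjusted p = 0.53). Without those arrays Pdha1 (0.28, adjusted p = 0.026), Pdhb (0.20, adjusted p = 0.0086) and Dld (0.22, adjusted p = 0.022) all passed.

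The promoter windows of the 3 called subunits are shown because these genes rose together. They lie at chrX:38508908-38509207 (+) for Pdha1, chr15:19182539-19182838 (+) for Pdhb and chr6:53652298-53652597 (-) for Dld in GRCr8, with the same motifs in capitals.
Pdha1: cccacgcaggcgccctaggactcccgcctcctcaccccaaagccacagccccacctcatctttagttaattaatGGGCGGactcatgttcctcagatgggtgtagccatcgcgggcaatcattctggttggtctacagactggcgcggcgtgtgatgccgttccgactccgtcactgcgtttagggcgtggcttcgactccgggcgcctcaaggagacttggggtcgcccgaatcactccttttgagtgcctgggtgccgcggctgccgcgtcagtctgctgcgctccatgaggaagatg
Pdhb: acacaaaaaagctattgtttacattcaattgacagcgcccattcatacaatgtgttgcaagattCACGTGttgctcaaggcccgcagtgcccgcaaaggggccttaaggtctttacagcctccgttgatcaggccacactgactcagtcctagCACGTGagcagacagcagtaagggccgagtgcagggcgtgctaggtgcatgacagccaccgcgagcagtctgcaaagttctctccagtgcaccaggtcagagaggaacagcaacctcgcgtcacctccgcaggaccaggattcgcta
Dld: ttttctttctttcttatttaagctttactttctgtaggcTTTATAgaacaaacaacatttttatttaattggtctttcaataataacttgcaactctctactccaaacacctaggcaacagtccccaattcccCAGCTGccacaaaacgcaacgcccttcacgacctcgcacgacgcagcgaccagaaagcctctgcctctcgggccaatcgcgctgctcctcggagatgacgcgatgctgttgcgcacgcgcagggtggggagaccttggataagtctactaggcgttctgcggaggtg
The windows shared no motif of the 5. Pdha1 held an Sp1 box starting at -176. Pdhb held CACGTG at -186 and -97, a palindrome in which ACGTG is read on both strands and overlaps itself. Dld held a TATAAA on the reverse strand at -211 and an E-box at -117.

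**Figure D3:**
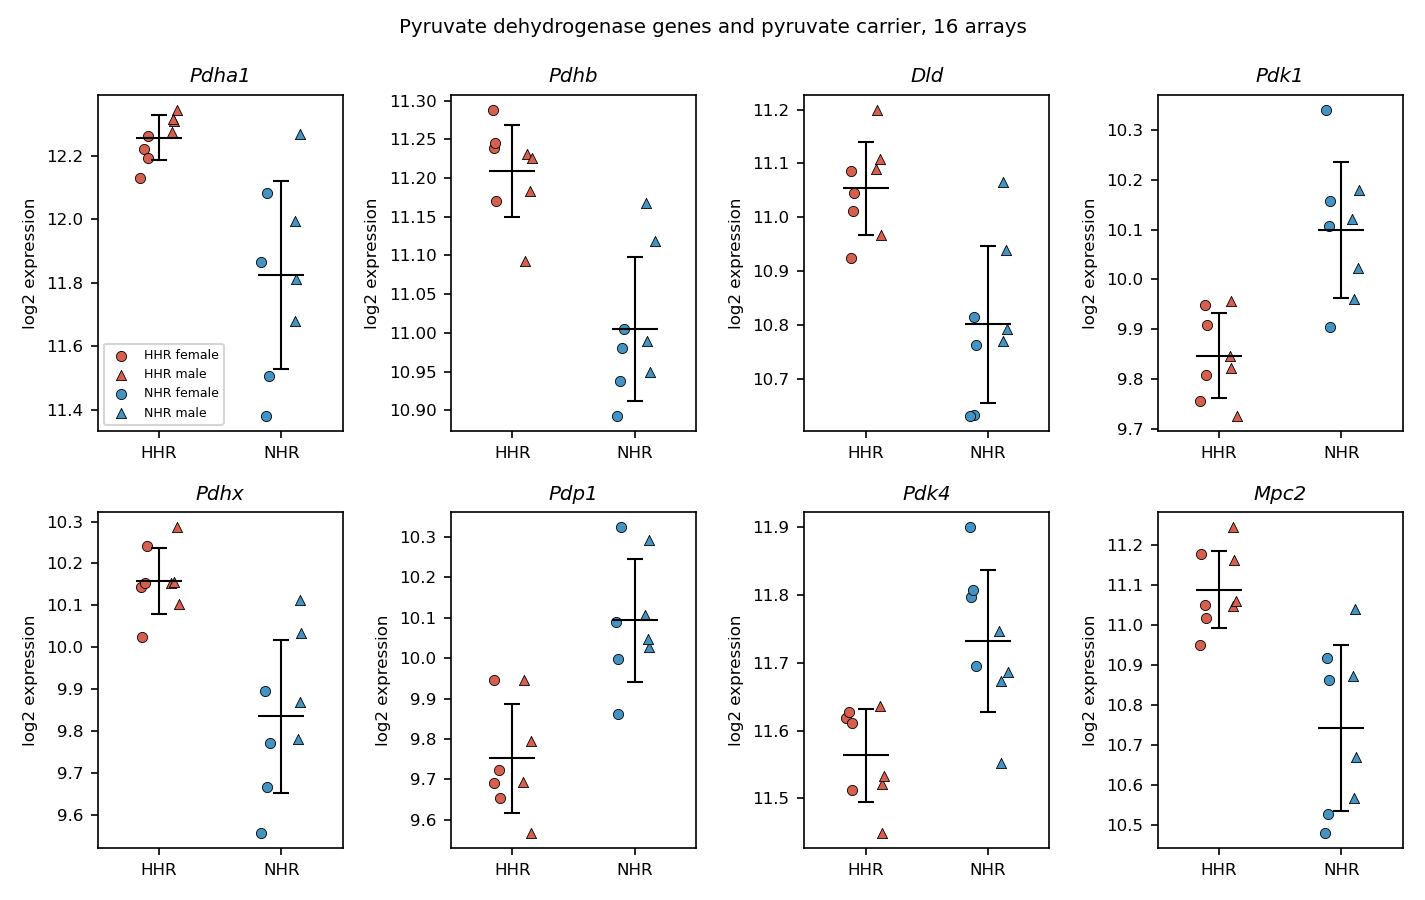
Log2 expression on each array of 4 members (Pdha1, Pdhb, Dld and Pdk1) and 4 further genes of the pyruvate step (Pdhx, Pdp1, Pdk4 and Mpc2), with HHR left of NHR, circles for females, triangles for males, and the mean and SD of 8 arrays; vertical axes differ between panels and do not start at 0. HHR values of Pdha1 lie within 12.13 to 12.34, while NHR values spread from 11.38 to 12.27.

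Glycogen genes rose in 4 of 7 cases, with no fall, beside 9.64% higher and 11.0% lower among all probe sets. The genes that rose were Ugp2, Gys1 and Gbe1, which act in synthesis, and Pygm, which acts in breakdown. Ugp2, which makes the UDP-glucose from which glycogen is built, ranged from 10.89 to 11.12 in HHR, median 10.98, and from 10.43 to 10.87 in NHR, median 10.63. Every HHR array lay above every NHR array (log2 difference 0.37, SE 0.05, limma adjusted p = 1.6e-04), a 1.29-fold higher level. Gys1, the muscle glycogen synthase, ranged from 10.77 to 11.08 in HHR and from 10.14 to 10.81 in NHR (0.33, SE 0.08, adjusted p = 0.0051). Gbe1, the branching enzyme, averaged 10.30 ± 0.11 in HHR and 10.09 ± 0.17 in NHR (SD, n = 8 each; 0.21, SE 0.06, adjusted p = 0.026). Its call was lost without HHR female 4 (adjusted p = 0.056), without NHR male 3 (0.051) and under quantile normalization.

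Pygm, the muscle phosphorylase that releases glucose from glycogen, ranged from 12.89 to 12.97 in HHR and from 12.52 to 12.92 in NHR, a log2 difference of 0.17 (SE 0.05, limma adjusted p = 0.029). The Pygm call was lost without any 1 of HHR male 2, HHR male 3, NHR female 3, NHR female 4, NHR male 3 or NHR male 4. It was also lost under quantile normalization (0.13, adjusted p = 0.082), under cyclic loess (0.11, adjusted p = 0.11) and without the 3 NHR arrays apart (0.08, adjusted p = 0.23). Pygb, the brain phosphorylase (0.02, adjusted p = 0.73), Pgm1, which links glucose 1- and 6-phosphate (0.04, adjusted p = 0.62), and Phka1, the muscle regulatory subunit of phosphorylase kinase (-0.03, adjusted p = 0.78), did not pass.

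**Figure D4:**
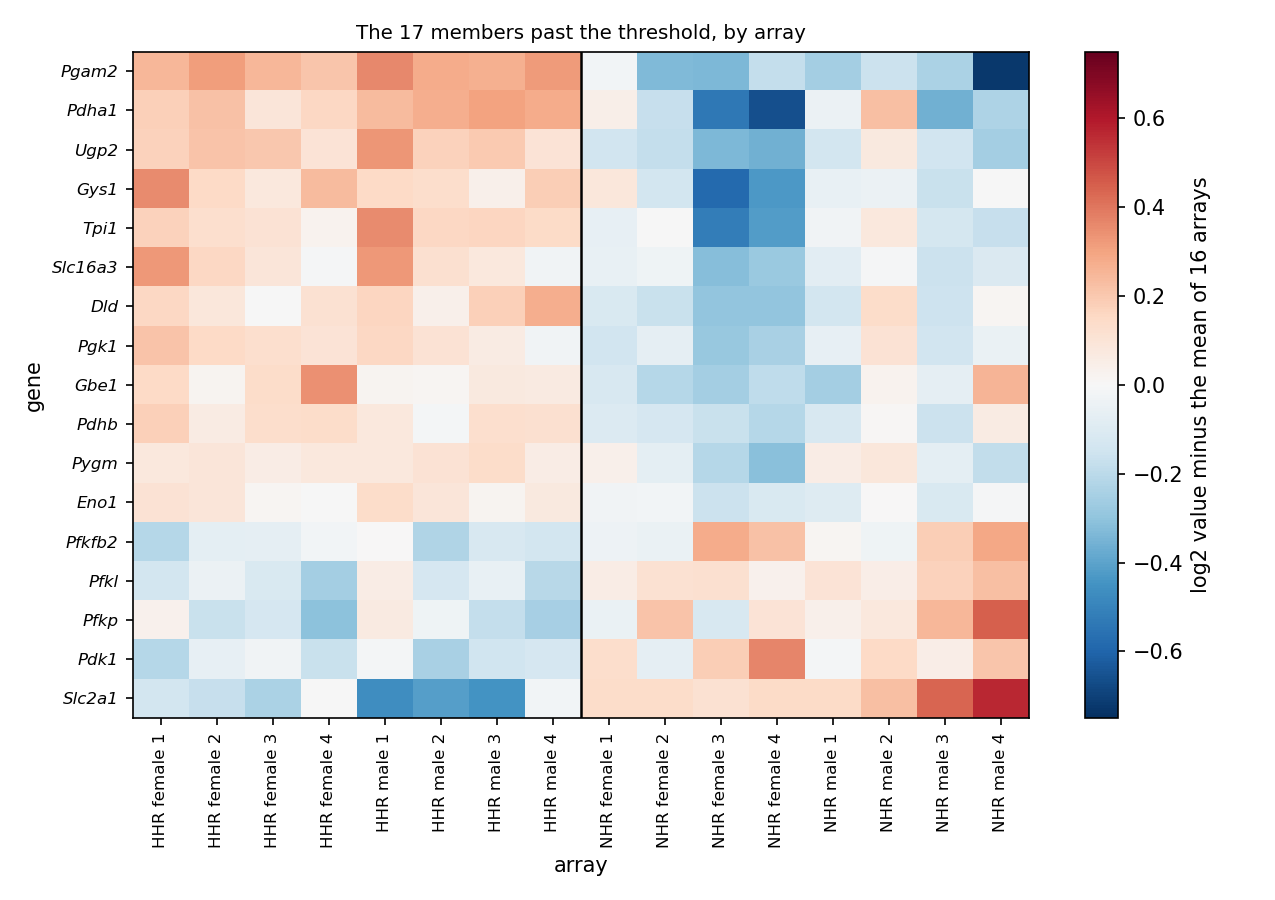
The 17 called genes in rows and the 16 arrays in columns, HHR left of the black line and NHR right of it; colour gives the log2 value minus the mean of the gene's 16 arrays, from -0.73 to 0.56. NHR female 3 and NHR female 4 hold the lowest values of Tpi1, Gys1 and Pdha1, and NHR male 4 holds the lowest value of Pgam2 and the highest of Slc2a1.

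The strain difference was then examined in each sex. In males 3 members passed, Pgam2 and Ugp2 higher and Slc2a1 lower, 8.33% of the members beside 4.02% of all probe sets. In females 12 members passed, 10 higher and 2 lower (Pfkl and Pdk1), 33.3% beside 12.0% of all probe sets. All 17 called genes had the same sign in both sexes. These counts do not show that the sexes differ: the interaction of strain and sex called 0 members in limma, and 0% of all probe sets, with 3 members at an unadjusted p under 0.05 (Slc2a1, Gbe1 and Pgk1) and a lowest adjusted p of 0.97. Slc2a1 in males was 11.11, 11.16, 11.12 and 11.55 in HHR and 11.72, 11.80, 12.01 and 12.13 in NHR, a log2 difference of -0.68 (SE 0.10). In females it was 11.43, 11.40, 11.34 and 11.57 in HHR and 11.71, 11.71, 11.69 and 11.71 in NHR, a difference of -0.27 (SE 0.10). Gbe1 differed by 0.06 in males and 0.36 in females, and Pgk1 by 0.11 in males and 0.33 in females (SE 0.09 and 0.07 in each sex). The count in females rests on single arrays: it was 7 without HHR female 1, without NHR female 3 or without NHR female 4, and 2 without the 3 NHR arrays apart. In males it was 6 without NHR male 2.

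**Figure D5:**
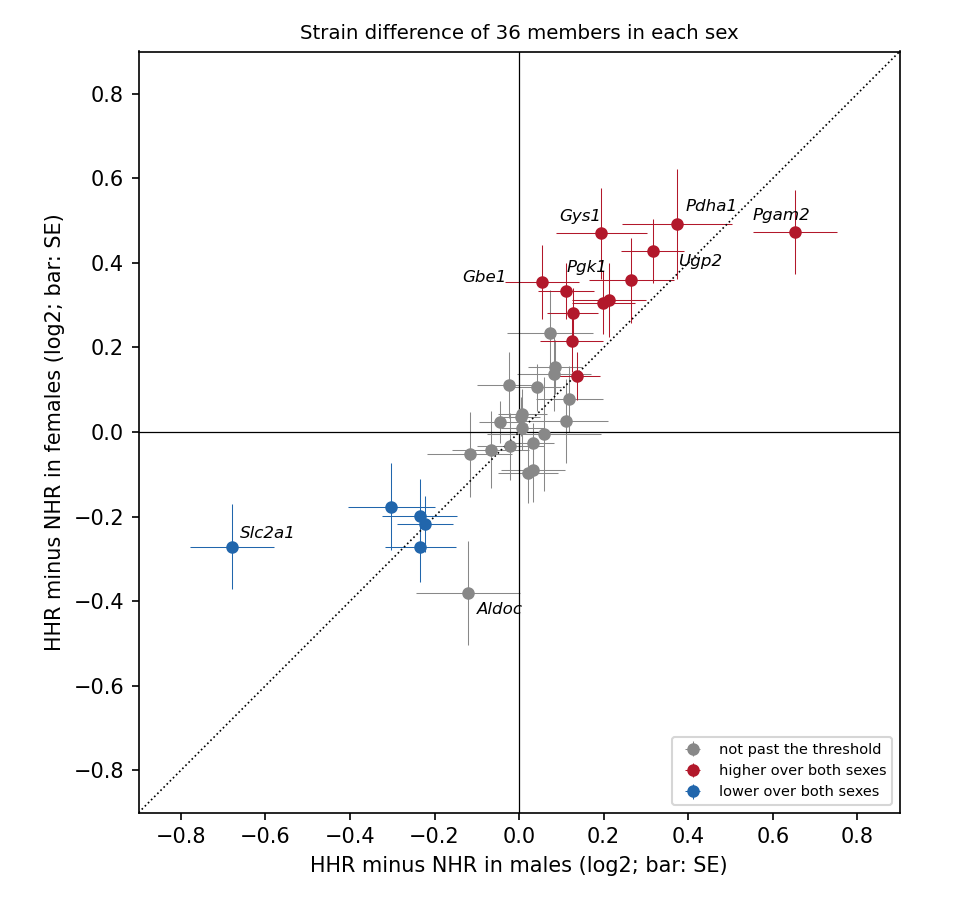
Log2 difference (HHR minus NHR) of the 36 genes in males on the horizontal axis and in females on the vertical axis, with SE bars; red genes rose and blue genes fell over both sexes, and the dotted line marks equal differences. Slc2a1 lies at -0.68 in males and -0.27 in females, and Gbe1 at 0.06 and 0.36.

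Males did not differ from females at any member in limma after adjustment, averaged over the strains, beside 0.0110% of all probe sets. An unadjusted p under 0.05 was reached by 2 members, Dld (male minus female 0.13, adjusted p = 0.76) and Pfkm (0.12, adjusted p = 0.78). The 4 members on chromosome X were Pdha1 (0.17, adjusted p = 0.80), Pfkfb1 (0.09, 0.81), Pgk1 (0.04, 0.92) and Phka1 (0.03, 0.94).

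Further genes of these pathways came from a list of 74, of which 60 were measured. Of these, 9 were higher (15.0%) and 10 lower (16.7%) in HHR, beside 9.64% and 11.0% of all probe sets, and 41 did not pass. After the filter on dim probe sets, 2777 of 16900 probe sets were higher and 2877 lower. At the pyruvate step, Pdhx, the binding protein that anchors E3 in the complex, rose by 0.32 (SE 0.06, limma adjusted p = 0.0011), and Mpc2, a subunit of the mitochondrial pyruvate carrier, by 0.35 (SE 0.08, adjusted p = 0.0041). Its partner Mpc1 differed by 0.14 (adjusted p = 0.22), and by a called amount without NHR male 4 (adjusted p = 0.037). Pdk4, the kinase induced by fasting and fatty acids, fell by 0.17 (SE 0.04, adjusted p = 0.012), and Pdp1, a phosphatase that activates the complex, fell by 0.34 (SE 0.07, adjusted p = 0.0027). Thus a kinase and a phosphatase with opposite actions were both lower. Pdk3, another of the kinases, differed by 0.24 in the other direction and did not pass. It passed after the filter on dim probe sets (limma adjusted p = 0.048) and with the replicate block (adjusted p = 0.033). Without the 3 NHR arrays apart, Pdk3 differed by 0.05 (adjusted p = 0.54).

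Among other glycogen genes, 3 of 16 rose and 1 fell, beside 9.64% and 11.0% of all probe sets. The rise in Pygl, the liver phosphorylase, was larger than that of any member. It averaged 7.56 ± 0.17 in HHR and 6.72 ± 0.08 in NHR (SD, n = 8 each), and all 8 HHR arrays lay above all NHR arrays (log2 difference 0.85, SE 0.07, limma adjusted p = 3.2e-07). Epm2a (laforin) and Nhlrc1 (malin), a phosphatase and a ubiquitin ligase that keep glycogen soluble, rose by 0.42 (adjusted p = 0.0042) and 0.30 (adjusted p = 0.022). The Nhlrc1 call was lost without NHR male 3 (adjusted p = 0.0503). Ppp1r3b, which brings protein phosphatase 1 to glycogen, fell in all 8 HHR arrays relative to the lowest NHR array (-0.26, SE 0.05, adjusted p = 0.0023).

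The pentose phosphate and gluconeogenesis list held 4 falls and no rise among 10 genes, beside 11.0% and 9.64% of all probe sets. The falls were in Pck2, the mitochondrial PEP carboxykinase (-0.18, limma adjusted p = 0.010), H6pd, a glucose 6-phosphate dehydrogenase of the endoplasmic reticulum (-0.27, 0.023), Tkt, transketolase (-0.15, 0.035), and Taldo1, transaldolase (-0.19, 0.021). The Tkt call was lost without any 1 of HHR females 1, 3 and 4, HHR males 1, 2 and 3, NHR females 2, 3 and 4 and NHR male 4 (adjusted p from 0.0523 to 0.0728), and that of H6pd without HHR female 3 (0.0516). Under median centring the Tkt call was lost too (adjusted p = 0.070). Fbp2, the muscle fructose bisphosphatase, differed by -0.15 (adjusted p = 0.11). Among other isozymes, Adpgk, an ADP-dependent glucokinase, rose by 0.30 (adjusted p = 0.0089), and Pfkfb3, a strongly activating relative of Pfkfb2, fell by 0.22 (adjusted p = 0.014). Ldhd, the D-lactate dehydrogenase, fell by 0.18 (adjusted p = 0.040), a call lost without any 1 of HHR females 1, 3 and 4, HHR males 2, 3 and 4, NHR females 1 and 4 and NHR males 1, 2 and 3 (adjusted p from 0.0519 to 0.0847). The Ldhd call was also lost under quantile normalization (adjusted p = 0.062), median centring (0.065) and cyclic loess (0.076). The transporter Slc2a3 (GLUT3) differed by 0.04 (adjusted p = 0.70).

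Of the regulators of glucose use, 3 of 9 rose and 1 fell, beside 9.64% and 11.0% of all probe sets. The catalytic subunits of AMP-activated protein kinase, the cell's energy sensor, were both higher, Prkaa1 by 0.42 (SE 0.08, limma adjusted p = 0.0021) and Prkaa2 by 0.37 (SE 0.09, adjusted p = 0.0067). Ppargc1a, the coactivator PGC-1 alpha that promotes mitochondrial genes, rose by 0.24 (adjusted p = 0.012), while Esrra, a nuclear receptor with which it works, fell by 0.20 (adjusted p = 0.012). Without the 3 NHR arrays apart, the differences were smaller but called for Mpc2 (0.21, adjusted p = 0.038), Prkaa1 (0.26, adjusted p = 0.016) and Prkaa2 (0.20, adjusted p = 0.044). Hif1a, the oxygen-sensitive regulator of glycolytic genes, differed by -0.02 (SE 0.08, adjusted p = 0.92), and by -0.13 without the 3 NHR arrays apart (adjusted p = 0.21). With those arrays left out, Adpgk, Pfkfb3, Pdk4, Taldo1, H6pd, Tkt, Ldhd, Ppargc1a and Esrra were not called, at adjusted p values of 0.0577 to 0.227.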

How the data were processed

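RNA from 16 neonatal rat hearts was hybridised to Affymetrix Rat Gene 1.0 ST arrays. The authors deposited log2 expression values made with RMA, which corrects background, normalizes between arrays and summarises probe sets; RMA and limma are named per the submitters' processing notes, and no version is stated. Groups and replicate numbers came from sample titles.

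Each probe set was tested on the deposited log2 values with limma 3.58.1 (R 4.3.3). The model held 4 group means over all 16 arrays, variances were moderated by eBayes, and p-values were adjusted by Benjamini-Hochberg over 27342 probe sets (threshold 0.05). Contrasts were HHR minus NHR over the sexes, within males and within females, their interaction, and male minus female. The script was tested on simulated data. All members are named or accounted for. Other pathway genes are named when past the threshold, with 6 named whatever their values (Pdk4, Mpc1, Mpc2, Hif1a, Fbp2 and Slc2a3). Pdk3 is named as a further kinase although it did not pass, and markers are named as examples. Members and lists were chosen with earlier results of these data known. All 36 members matched RefSeq gene IDs; chromosomes and promoters are from GRCr8. The array's own build was not given. In 27 alternatives, filters, normalization, moderation, a replicate block, the threshold and the arrays included were varied. No background level was used here, so dim probe sets cannot be told from absent signal, and the number of arrays limits precision. Levels were not compared between probe sets.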

Additional observations from a re-analysis of the deposited data

Results flagged for a closer look

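In each group of 4 arrays, the highest and lowest values of each member were set against the other 3 by Dixon's ratio. Of 144 combinations of member and group, 8 (5.56%) held an array far from the others, and chance gives about 1 in 20. In HHR male 4, Slc2a1 was highest at 11.55, against 11.11 to 11.16 in the other HHR males. The same array had the highest Slc2a4, at 9.94 against 9.73 to 9.74, and the lowest Eno3, at 11.42 against 11.66 to 11.68. HHR male 1 had the lowest Aldoc, at 9.73 against 9.81 to 9.82, and the highest Tpi1, at 13.30 against 13.09 to 13.11. HHR female 2 had the lowest Slc16a1, at 11.74 against 11.81 to 11.82. NHR male 4 had the lowest Pgam2, at 9.36 against 9.83 to 9.92. NHR female 3 had the lowest Slc2a1, at 11.69 against 11.71 in the other NHR females, a gap that is small in size because those 3 arrays nearly coincide.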

How the results depend on the processing

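Of the 17 called members, 10 (Tpi1, Pgk1, Pgam2, Pdha1, Pdhb, Dld, Gys1 and Ugp2 higher, Slc2a1 and Pfkl lower) were called in every one of the 27 alternatives. The count of higher members was 9 under quantile normalization, with 6 lower, and lay between 10 and 13 without single arrays. Lower members numbered 3 at an adjusted p under 0.01 and 3 without the 3 NHR arrays apart, and 4 to 6 without single arrays. In males the count was 5 with array weights and 2 to 6 without single arrays. In females it was 5 at an adjusted p under 0.01, 2 without the 3 NHR arrays apart and 7 to 14 without single arrays. The labels do not say whether replicate numbers pair the animals. In NHR, replicates 1 and 2 of both sexes lay on the other side of the main axis within groups from replicates 3 and 4. Within groups, 11 of 24 same-number pairs correlated over 0.1, from -0.11 to 0.37. Pairs with different numbers were not compared, so these values cannot decide whether the numbers mark a pairing or a batch. With the replicate block, 13 members were higher and 6 lower, and 15 were called in females, with Aldoc and Dlat gained. The member median, 0.056 over all arrays, was 0.028 without the 3 NHR arrays apart, where that of all probe sets was -0.017, and 0.010 under cyclic loess, where that of all probe sets was -0.0022. Signs turned for genes that were not called. Under quantile normalization Aldoa was -0.00758, Eno3 -0.015, Ldhb -0.023 and Pygb -0.026. Under cyclic loess Aldoa was -0.053, Gapdh -0.054, Eno3 -0.012, Ldhb -0.060 and Pygb -0.020. With array weights Aldoa was -0.00306 and Eno3 -0.015, and under median centring Gpi was 0.012. Without the 3 NHR arrays apart Hk2 was 0.00704, Aldoa -0.013, Eno3 -0.158, Pkm 0.014, Slc16a1 0.00288, Pdk2 -0.030 and Pygb -0.012. Without single arrays Pfkm ran from -0.052 to 0.00695, Aldoa from -0.00149 to 0.019, Eno3 from -0.041 to 0.083, Ldhb from -0.00709 to 0.014 and Phka1 from -0.052 to 0.018. The cause was not tested. The filter on dim probe sets removed Pfkfb1, so it has no value there.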
